A study of Mus musculus with 10 samples.

Results

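The receptors described here are those for serotonin, noradrenaline, adrenaline and histamine whose genes are Htr1a, Htr1b, Htr2a, Htr2c, Htr7, Adra1b, Adra2a, Adrb1, Hrh1 and Hrh3. They were taken by name, as every probe set whose annotation names exactly 1 gene and that gene is 1 of these 10. The list of genes was drawn up with earlier results of these data known. This gave 12 probe sets of 7 genes, out of 45037 probe sets of 18193 genes in the series. Htr2a, Adra2a and Adrb1 were named by none of the annotated probe sets used and were not analysed here. Of the 7 genes, 5 had 2 probe sets each, and Adra1b and Hrh3 had 1 each.

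The arrays came from 10 mice of the DBA1/lacJ strain, all given lipopolysaccharide (LPS, a bacterial cell wall component that causes fever) into the peritoneum at 120 µg/kg. The preoptic region of the hypothalamus was laser-captured from brains taken 5 h later. After 2 rounds of amplification the RNA of each mouse was hybridised to an array of its own. Labels put 5 mice as wild-type and 5 as knockout for mPGES-1, the inducible prostaglandin E2 synthase encoded by Ptges, and the comparison asks which transcripts differ between these genotypes after LPS. They do not describe the knockout allele, the ages or the sexes, and no mice without LPS were analysed here. Levels are given as linear intensities, and differences on the scale log2(intensity + 16), as labelled knockout minus labelled wild-type, with n = 5 per group.

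These receptors sit in the cell membrane and act through G proteins. Htr1a, Htr1b, Adra2a and Hrh3 couple to Gi proteins, which lower cyclic AMP; Htr2a, Htr2c, Adra1b and Hrh1 couple to Gq, which activates phospholipase C; and Htr7 and Adrb1 couple to Gs, which raises cyclic AMP. Serotonin, noradrenaline and histamine reach the preoptic region in axons from neurons of the brainstem and posterior hypothalamus, and drugs at several of these receptors are known to change body temperature.

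The Ptges signal did not go down with the knockout label. Its probe set 1439747_at gave 49.96 ± 24.5 (SD, n = 5) in labelled knockouts and 4.54 ± 3.09 in labelled wild-types (limma adjusted p = 0.111). The others, 1449449_at and 1449450_at, gave 40.2 against 13.4 and 37.3 against 30.7 (limma adjusted p = 0.302 and 0.774). Only 1449450_at had a mean log2 signal above the background level given below. Since the deleted part of the gene is not described, the Ptges signal checks no label. Every direction below therefore rests on the labels. Of 14 measured preoptic marker genes 13 lay above background, among them the galanin gene Gal at 1422 and the glutamate transporter gene Slc17a6 at 718, with only Brs3 below. Background was set at an intensity of 24.7, the level of the 95th percentile of 44 olfactory receptor probe sets, genes not known for expression in this tissue. The arrays differed as wholes: the median intensity ran from 32.0 to 44.8 in labelled wild-types and from 24.6 to 29.8 in labelled knockouts, without overlap, and the mean log2 signal of the hybridization controls from 10.6 to 11.9 against 9.91 to 10.9. Over all probe sets 29320 were lower and 15717 higher in labelled knockouts, with a median difference of -0.13, which was 0.15 with median centring and -0.01 with quantile normalization.

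No amine receptor probe set differed between the genotypes past the threshold. Of the 12, 0 passed limma's test (Benjamini-Hochberg adjusted p below 0.05 over all 45037 probe sets), where the background is also 0 probe sets, or 0%. Limma adjusted p ran from 0.365 to 0.982. At unadjusted p below 0.05 there were 2 of the 12, Htr1b probe set 1442077_at on the higher side and Hrh3 on the lower side. Over the whole array 5696 probe sets, or 12.6%, lay below that unadjusted p, 3.68% on the higher and 8.97% on the lower side, so 2 of 12 is near the background. The genotypes did not overlap in 0 of the 12, against 3.22% of all probe sets. The 12 differences had a median of 0.06, with 7 higher and 5 lower.

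**Figure D1:**
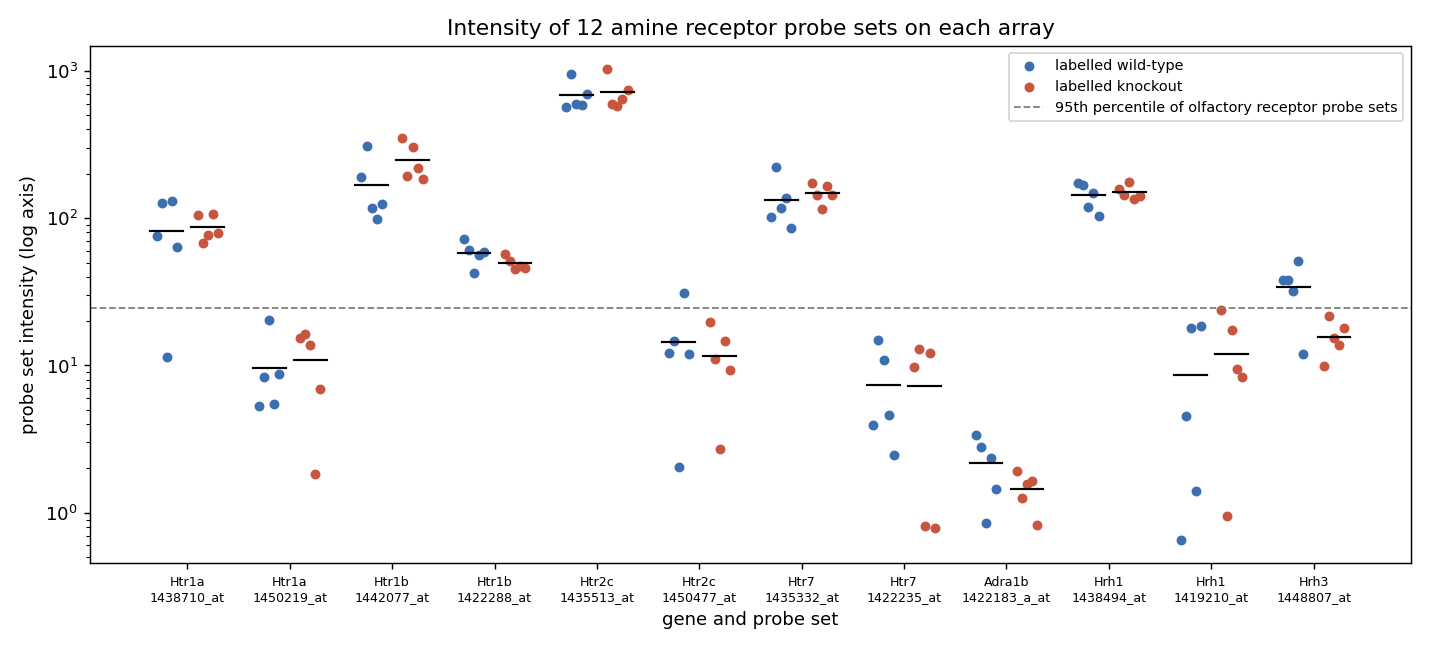
Intensity (log axis) of each of the 12 probe sets on each array, labelled wild-type in blue and labelled knockout in red; bars are group means of 5 arrays and the dashed line is the olfactory receptor mark at 24.7. Htr2c probe set 1435513_at is the brightest on every array, and in no probe set do the groups separate.

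As signals, the probe sets spanned nearly the whole range of the array. The order, given as a description because probe sets bind their targets with unequal strength and so do not rank transcripts, began with Htr2c at 699 ± 164 (SD, n = 10 arrays; percentile 90.7 of all probe sets). Htr1b followed at 209 ± 86.4, Hrh1 at 147 ± 23.6, Htr7 at 140 ± 39.3 and Htr1a at 84.5 ± 35.0. The Htr2c signal was above that of Htr1b on 10 of 10 arrays, whereas Hrh1 was above Htr7 on 6 of 10, so these neighbours did not separate beyond their spread. The second probe set of Htr1b was at 53.7 ± 9.12 and Hrh3 at 25 ± 14, with a mean log2 signal below the mark. The other 4 second probe sets, of Htr2c, Hrh1, Htr1a and Htr7, lay between 7.33 and 13.0, and Adra1b, the Gq-coupled noradrenaline receptor, was at 1.81 ± 0.83. On this measure 6 probe sets of 5 genes were above background, 5 of them on all 10 arrays, and 4 probe sets were above it on 0 arrays.

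Of the listed serotonin receptors, Htr1b had the smallest unadjusted p, 0.0375 on 1 of its probe sets. It encodes a receptor known on axon terminals, where it limits transmitter release. Probe set 1442077_at read 189, 308, 118, 98.1 and 126 on labelled wild-type arrays 1 to 5. The labelled knockout arrays read 350, 194, 303, 217 and 185. All 5 knockouts lay above wild-type replicates 3, 4 and 5, and wild-type replicate 2 was as high as the upper knockouts. The difference was 0.60 (SE 0.27, 95% interval 0.04 to 1.16; limma adjusted p = 0.365), or 1.52-fold, and 0.90 with the hybridization controls in the fit (limma adjusted p = 0.651). The other Htr1b probe set, 1422288_at, went the other way. It was at 58.2 ± 10.7 in labelled wild-types and 49.3 ± 4.91 in labelled knockouts, a difference of -0.17 (SE 0.24, limma adjusted p = 0.785). As deposited, the gene therefore has no single direction. The second sign turned to 0.05 with quantile normalization and 0.11 with median centring. Under these settings 1442077_at was at 0.59 and 0.88 (limma adjusted p = 0.514 and 0.0912), so both probe sets were then higher and neither passed. Whether the probe sets differ in direction thus depends on the processing.

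Htr1a encodes the receptor through which serotonin inhibits its own neurons and many target cells. Probe set 1438710_at read 75.9, 126, 11.4, 132 and 64 in labelled wild-types 1 to 5. In labelled knockouts it read 105, 67.6, 76.8, 107 and 79.9. Wild-type replicate 3 was far below the other 9 arrays, and the remaining wild-types surrounded the knockouts. The difference of 0.28 (SE 0.37, limma adjusted p = 0.776) turned to -0.13 without that array. Its other probe set, 1450219_at, was at 9.66 ± 6.23 in labelled wild-types and 10.9 ± 6.25 in labelled knockouts, above the mark on 0 arrays.

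The brightest member was the Gq-coupled serotonin receptor Htr2c, which is made by many forebrain neurons and in large amounts by the choroid plexus. Its probe set 1435513_at read 569, 957, 597, 590 and 693 in labelled wild-types 1 to 5. The labelled knockouts read 1023, 595, 579, 640 and 745. One array in each group, wild-type replicate 2 and knockout replicate 1, stood above the others, and the groups overlapped over most of their range. The difference was 0.07 (SE 0.19, limma adjusted p = 0.906), and its 95% interval ran from -0.32 to 0.46. Leaving out knockout replicate 1 gave -0.07, and quantile normalization -0.01. The 7 arrays on which poly-A control RNAs (spike-ins added before labelling) were seen, all but wild-type replicates 2 and 5 and knockout replicate 3, gave, on their own, 0.32 (limma adjusted p = 0.58). The dim Htr2c probe set 1450477_at was at 14.4 ± 10.5 in labelled wild-types and 11.6 ± 6.38 in labelled knockouts.

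Choroid plexus marker signal stood out on 1 array, mainly through the single gene Ttr, and its part in the Htr2c signal was not tested. The transthyretin gene Ttr (probe set 1454608_x_at) read 8599 on knockout replicate 3, against 131 to 582 on the other arrays, and the summed signal of 11 marker genes ran from 766 to 1425 in labelled wild-types and 682 to 9189 in labelled knockouts. Of these 11 genes 6 were above the mark, and Kl, Aqp1, Folr1, Kcne2 and Slc4a5 were not. In labelled knockouts 6 of the 11 were higher and 5 lower, with a median difference of 0.04. On knockout replicate 3 Htr2c was at 579, the lowest of the 5 knockouts, and without that array its difference was 0.13 (limma adjusted p = 0.833).

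Htr7, the Gs-coupled serotonin receptor, differed by less than its spread. Probe set 1435332_at read 102, 221, 116, 137 and 86.3 in labelled wild-types, and 173, 143, 115, 166 and 143 in labelled knockouts. All knockout values fell within the wild-type range. The difference was 0.20 (SE 0.23, 95% interval -0.29 to 0.68; limma adjusted p = 0.748). It was 0.08 without wild-type replicate 5, 0.38 without wild-type replicate 2 and 0.55 with the hybridization controls in the fit. The other Htr7 probe set, 1422235_at, was at 7.36 ± 5.32 and 7.31 ± 6.06, above the mark on 0 arrays, and its difference of -0.02 changed sign under 5 other settings.

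**Figure D2:**
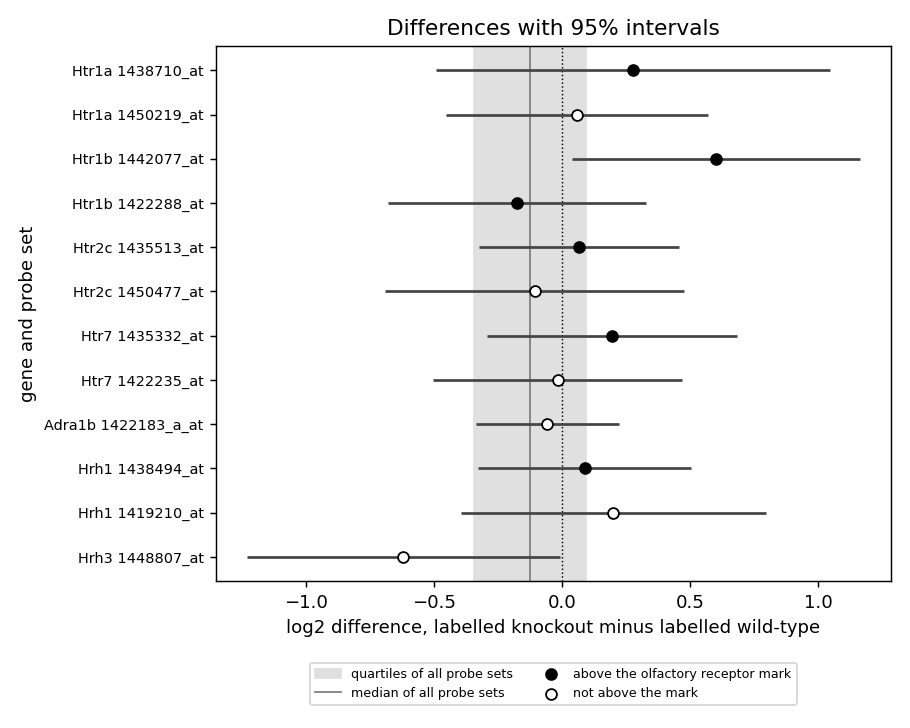
Log2 difference of each probe set, labelled knockout minus labelled wild-type, with its 95% interval from limma; filled points lie above the olfactory receptor mark, and the grey band and line give the quartiles and the median of all probe sets. The intervals of 10 probe sets include 0, and those of Htr1b 1442077_at (0.04 to 1.16) and Hrh3 (-1.23 to -0.01) do not, before adjustment.

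The histamine receptors gave differences of opposite sign, and neither passed. Hrh1, the Gq-coupled receptor through which histamine excites hypothalamic neurons, had a bright and a dim probe set. The standard deviation over 10 arrays was 16.1% of the mean for the bright 1438494_at, close to the 17.0% of Htr1b 1422288_at, and 82.8% for the dim 1419210_at. The bright probe set read 172, 169, 120, 149 and 103 in labelled wild-types, and 158, 144, 177, 134 and 141 in labelled knockouts. The knockouts lay mostly inside the wild-type range, and the difference was 0.09 (SE 0.20, 95% interval -0.33 to 0.50; limma adjusted p = 0.876). Its sign turned without wild-type replicate 5 (-0.01) and in the 7 arrays with spike-in signal (-0.02). The second Hrh1 probe set, 1419210_at, was at 8.62 ± 8.92 and 12.0 ± 8.77, above the mark on 0 arrays.

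Hrh3 is the Gi-coupled autoreceptor that limits histamine release, and it also limits release of other transmitters. It had 1 probe set, 1448807_at, which read 38.0, 38.2, 32.1, 51.1 and 12.0 in labelled wild-types. The labelled knockouts read 9.97, 21.8, 15.3, 13.7 and 17.8. On 4 wild-type arrays and 0 knockout arrays the signal was above the mark, and wild-type replicate 5 lay among the knockouts. The difference was -0.62 (SE 0.29, 95% interval -1.23 to -0.01; limma adjusted p = 0.388). It was -0.35 with quantile normalization, -0.34 with median centring and -0.27 when adjusted for the hybridization controls, and was -0.83 in the 7 arrays with spike-in signal, with limma adjusted p of 0.733, 0.616, 0.937 and 0.398. The median intensity of the arrays was lower in labelled knockouts, as given above, and its part in the Hrh3 difference was not tested beyond these settings.

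Of the listed adrenergic receptors only Adra1b was measured, and it gave no usable level. Its probe set 1422183_a_at read between 0.86 and 3.38 in labelled wild-types and between 0.82 and 1.92 in labelled knockouts, all below the mark. The difference was -0.06 (SE 0.13, limma adjusted p = 0.88), on a scale where the added 16 outweighs the signal. No statement on this receptor in this tissue can be made from it.

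**Figure D3:**
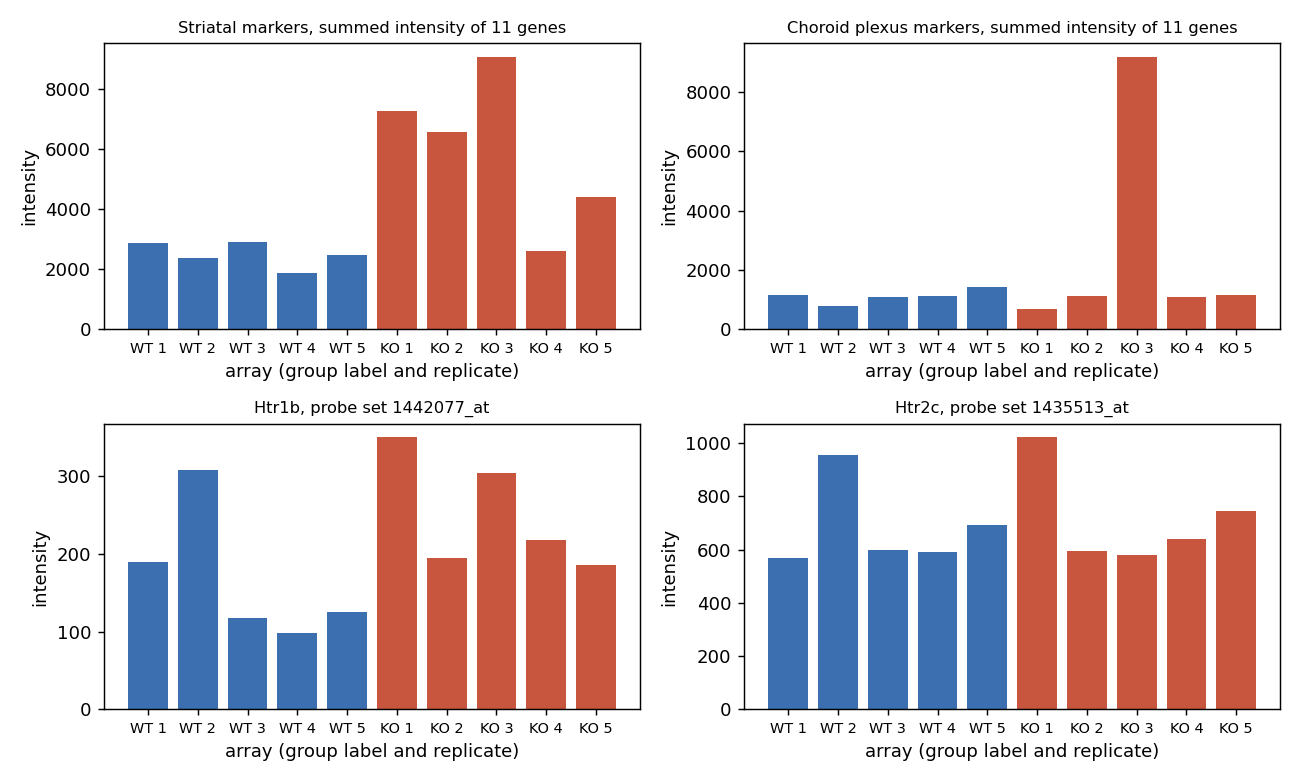
Bars give, for each array, the summed intensity of 11 striatal and of 11 choroid plexus marker genes (upper panels) and the intensity of Htr1b 1442077_at and Htr2c 1435513_at (lower panels); blue is labelled wild-type, red labelled knockout. Striatal markers reach 9062 on knockout replicate 3. The choroid plexus sum reaches 9189 there, mostly from the single gene Ttr, and at most 1425 elsewhere.

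Striatal marker signal averaged higher in labelled knockouts, and both Htr1b and Hrh3 are also known as receptors of the striatum. The summed intensity of 11 striatal marker genes ran from 1880 to 2900 in labelled wild-types and from 2601 to 9062 in labelled knockouts. Of these genes 10 were higher and 1 lower, 0 passed limma's test, and Drd2 and Ppp1r1b were not above the mark. The dopamine receptor gene Drd1 (1455629_at) was at 166 in labelled knockouts against 50.7, and the phosphodiesterase gene Pde10a (1439618_at) at 657 against 197. The Htr1b probe set 1442077_at was higher in the same group and Hrh3 was lower, and the part of striatal tissue in either was not tested. In tissue samples of this kind more cells of a type and more RNA per cell cannot be told apart. Septal markers summed to between 10652 and 14178 in labelled wild-types and 8246 to 11798 in labelled knockouts, with 1 gene higher and 7 lower. Astrocyte, microglia, vessel and oligodendrocyte markers were lower in 5 of 8, 6 of 8, 7 of 10 and 5 of 7 genes. Over all probe sets 29320 of 45037 were lower, a share near that of these glial and vessel lists. The sums differed more: astrocyte markers summed to 49682 to 59132 in labelled wild-types and 35926 to 46506 in labelled knockouts, without overlap. Oligodendrocyte sums were 46348 to 63192 against 32121 to 46847, microglia 7858 to 11452 against 5925 to 8215, and vessel 2712 to 4788 against 2208 to 3549. At limma unadjusted p below 0.05 were 25%, 23.8%, 14.3% and 5.88% of their probe sets, against 12.6% of all.

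The other receptors for these amines showed no called change either. Of 17 genes, 12 were measured by 20 probe sets, and 0 passed (limma; 4 at unadjusted p below 0.05, or 20%, against 12.6% of all probe sets). The median difference was -0.19, with 8 higher and 12 lower. Htr4, a Gs-coupled serotonin receptor, had the smallest p: probe set 1443365_at read 2.71, 26.4, 2.08, 50.4 and 18.2 in labelled wild-types and 58.4, 95.4, 61.7, 59.0 and 50.3 in labelled knockouts. Wild-type replicate 4 just reached the lowest knockout, and the difference was 1.32 (SE 0.35, limma adjusted p = 0.171). Its other probe set, 1427654_a_at, went the opposite way at -0.54 (limma adjusted p = 0.387). That probe set was at 15.4, below the mark, whereas both Htr1b probe sets were above it. Htr1d, a Gi-coupled serotonin receptor, was at 0.99 on probe set 1440166_x_at (SE 0.35, limma adjusted p = 0.254). It was at 0.22 on 1440741_at and -0.40 on 1422290_at, both below the mark in mean signal. Htr1d 1440166_x_at was itself above the mark in labelled knockouts (47.2) but below it in labelled wild-types (17.4).

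Genes that make, carry and break down the amines were counted in the same way. Of 28 probe sets of 15 genes 0 passed limma's test (3 at unadjusted p below 0.05, or 10.7%), with 6 higher, 22 lower and a median of -0.23. Over all probe sets 29320 of 45037 were lower, with a median of -0.13. The plasma membrane monoamine transporter gene Slc29a4 read 2065, 1642, 1761, 1518 and 1721 in labelled wild-types on probe set 1441902_x_at. In labelled knockouts it read 1256, 945, 777, 923 and 1112, below every wild-type. The difference was -0.80 (SE 0.15, limma adjusted p = 0.111), while its dim probe set 1424900_at was at -0.14 (limma adjusted p = 0.861). Hnmt, which encodes the enzyme that inactivates histamine in the brain, was at 304 against 208, a difference of 0.55 (SE 0.20, limma adjusted p = 0.265). Of 6 measured marker genes of the amine neurons themselves, whose cell bodies lie in other nuclei, 3 were above the mark. These were Dbh at 171 (1459848_x_at), Hdc at 119 (1454713_s_at) and Slc6a2 at 37.6 (1447311_at), whereas Tph2, Slc6a4 and Phox2a were not above it. Each of the 3 was above the mark on its brightest probe set only. Their other probe sets ran from 6.26 (Hdc 1451796_s_at) to 21.9 (Dbh 1450670_at), all below the mark. Of the 6 genes 0 were higher and 6 lower in labelled knockouts, and 0 passed limma's test.

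Downstream of the receptors, 0 of 44 probe sets of 14 G protein and phospholipase C beta genes passed (limma; 3 at unadjusted p below 0.05, or 6.82%), and their median was -0.09. The 2 with the smallest p both belong to Gnaq, the alpha subunit used by Htr2c and Hrh1, at 0.63 (1428940_at, SE 0.25, limma adjusted p = 0.315) and 0.43 (1428938_at, SE 0.17, limma adjusted p = 0.319). The other Gnaq probe sets ran from -0.29 (1450115_at, at a mean of 6.60 and below the mark) to 0.29 (1428939_s_at), with the brightest, 1455729_at, at 0.16. Of 25 probe sets of genes that end receptor signalling, 0 passed (limma; 5 at unadjusted p below 0.05, or 20%), with a median of -0.09. Rgs2, a regulator that shortens Gq signals, read 2019, 1827, 2287, 1247 and 1382 in labelled wild-types on probe set 1419248_at. It read 2740, 3062, 2158, 2392 and 3899 in labelled knockouts, where only replicate 3 was below the highest wild-type. The difference was 0.70 (SE 0.19, limma adjusted p = 0.171). Its other probe sets were at 0.03 (1447830_s_at, the brightest), -0.15 (1419247_at) and -0.70 (1443250_at), so Rgs2 had no single direction. Rgs4, another such regulator, was at 0.33 on its bright probe set 1416286_at (SE 0.15, limma adjusted p = 0.364) and at -0.23 on 1416287_at. Its probe set of smallest p, 1448285_at, was below the mark in mean signal, at 13.4 in labelled knockouts and 2.39 in labelled wild-types (limma adjusted p = 0.309).

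**Figure D4:**
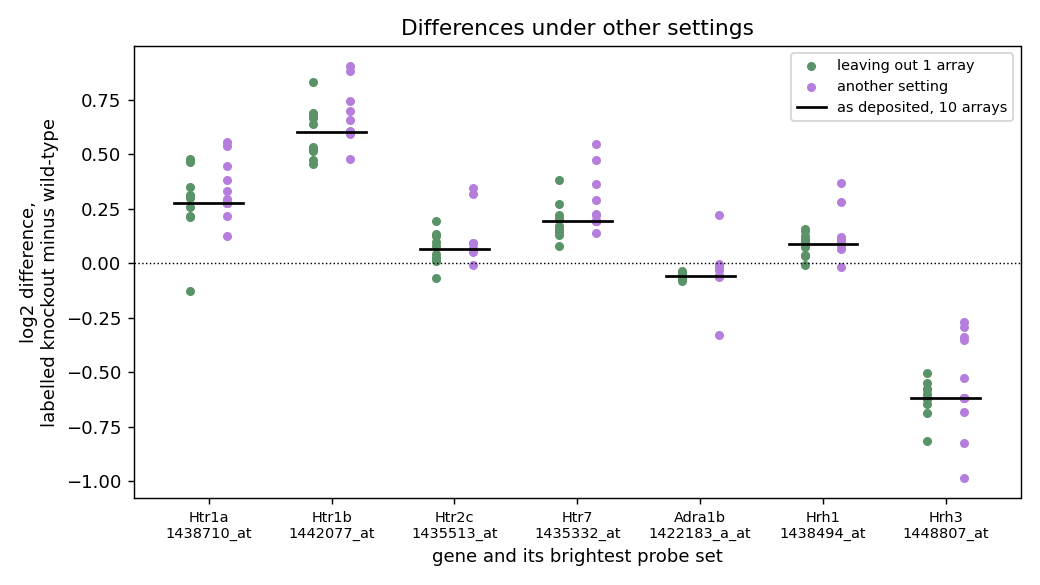
Log2 difference of the brightest probe set of each measured gene as deposited (black line), without each array in turn (green) and under each other setting (purple). Htr1b stays above 0 (0.46 to 0.90) and Hrh3 below 0 (-0.98 to -0.27), Htr1a crosses 0 without wild-type replicate 3, and Htr2c, Adra1b and Hrh1 each cross it under other settings.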

How the data were processed

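The deposited table holds probe set intensities on a linear scale, and the submitters' processing notes name GCOS as the software, with its version, settings and presence calls not given in the sources used here. Every array had a mean of 200.002 after the lowest and highest 2% were left out, so arrays had been scaled as a whole. Of 45101 probe sets, 64 controls were left out. Genes were named from the platform annotation, which can be old: 34945 probe sets named 1 gene, 932 several and 9160 none. Of the first, 34741 matched a RefSeq table (assembly GRCm38.p6) by Entrez ID, with the same symbol. No build is named, so no coordinates are given.

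Each probe set was tested on its own as log2(intensity + 16), which understates changes of dim genes, with limma (lmFit, eBayes with an intensity trend) and Benjamini-Hochberg adjustment over all 45037. The procedure was tested on simulated data. No filter was applied. Replicates are separate mice by the descriptions, and no pair of arrays shared over 0.0044% of values. Alternatives were a pseudocount of 1 or 64, median centring, quantile normalization, 2 filters on dim probe sets, the brightest probe set of each gene, no trend, array weights, replicate number as a block, spike-in signal (reaching 100 on 7 arrays) as a block or alone, hybridization controls as a covariate, a threshold of 0.1, and each array left out. In choosing the brightest probe set of each gene, those with names ending in _x_at were taken only where a gene had no other.

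The members and lists were chosen with earlier results of these data known. Named were all member probe sets, Ptges, the 2 probe sets of smallest p in each other list, and a few markers. Further probe sets of Htr4, Htr1d, Slc29a4, Gnaq, Rgs2 and Rgs4 were named after their values were seen. The same holds for markers below background and for the amine neuron markers above it. Analyses used R 4.3.3, limma 3.58.1, data.table (version 1.17.8), Python 3.11.15, numpy 2.4.6, pandas 2.3.3 and matplotlib 3.10.9. The number of arrays limits the precision.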

Additional observations from a re-analysis of the deposited data

Results flagged for a closer look

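In 1 of the 24 groups of 5 arrays checked among the receptor probe sets, 1 array stood far from the others, and chance gives about 1 in 20 such groups. The dim Htr1a probe set 1450219_at read 20.4 on wild-type replicate 3, against 5.27 to 8.74 on the other labelled wild-type arrays. The same array gave the lowest reading of the bright Htr1a probe set, 11.4, and was the only one on which the dim probe set read higher.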

How the results depend on the processing

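The count of receptor probe sets past limma's threshold was 0 under all 24 alternatives. Over all probe sets the count of 0 became 550 with median centring, 545 higher and 5 lower, 3 with the brightest probe set of each gene, 1 with the replicate number as a block, and 0 to 1 when an array was left out, with 1 without knockout replicate 1 and 1 without knockout replicate 4. Median centring also called 1 probe set of the other amine receptors, Htr4 1443365_at at 1.60 (limma adjusted p = 0.0308), and 1 of the desensitization genes, Rgs2 1419248_at at 0.98 (limma adjusted p = 0.0274). Deviations of arrays with the same replicate number correlated between -0.11 and 0.05, which cannot settle whether the numbers pair mice. Each replicate number holds 1 array of each group, so the replicate block cannot move a difference, only its error. With the block the limma unadjusted p was 0.0352 for Htr1b 1442077_at and 0.0657 for Hrh3. Without it these were 0.0375 and 0.047.

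Signs turned only in differences of 0.28 or less as deposited, and the cause was not tested. With quantile normalization Htr1b 1422288_at was at 0.045, Htr2c 1435513_at at -0.0076, Htr2c 1450477_at at 0.079 and Htr7 1422235_at at 0.10. With median centring Htr1b 1422288_at was at 0.11, Htr2c 1450477_at at 0.17, Htr7 1422235_at at 0.26 and Adra1b at 0.22. In the 7 arrays with spike-in signal Htr1a 1450219_at was at -0.0096, Htr2c 1450477_at at 0.034, Htr7 1422235_at at 0.13 and Hrh1 1438494_at at -0.016. Htr7 1422235_at was at 0.041 with array weights and 0.39 with the hybridization covariate. Without single arrays the ranges that crossed 0 were -0.13 to 0.48 for Htr1a 1438710_at, -0.017 to 0.20 for Htr1a 1450219_at, -0.068 to 0.19 for Htr2c 1435513_at, -0.28 to 0.068 for Htr2c 1450477_at, -0.11 to 0.091 for Htr7 1422235_at and -0.0097 to 0.16 for Hrh1 1438494_at. Signal near background limits the 6 probe sets not above the mark.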

Other observations

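In each of the 5 receptor genes with a pair of probe sets, 1 was much brighter, by 3.89-fold for Htr1b, 8.24-fold for Htr1a, 14.3-fold for Hrh1, 19.1-fold for Htr7 and 53.9-fold for Htr2c as ratios of mean intensity. The brighter 1 was higher on 10 of 10 arrays in 4 genes and on 9 of 10 in Htr1a. In all 5 the annotation of the brighter probe set cites an expressed sequence tag. Among the 4 of these genes whose other probe set cites a RefSeq transcript the tag-based 1 was brighter in 4 of 4, against 895 of 1576 genes, or 56.8%, over the whole array. Among the other amine receptor genes with both kinds it was brighter in 3 of 4. This was looked at after the values were seen. Control probe sets read far more at the 3′ than at the 5′ end of transcripts on every array, with ratios for Gapdh of 24.6 to 53.4 in labelled wild-types and 33.2 to 51.5 in labelled knockouts. How much this adds to the gap between probe sets was not tested. In 3 of the 5 genes the probe sets differed, as deposited, in the direction of the genotype difference.

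Over the 10 arrays with group means removed, the probe sets most like Htr2c 1435513_at among 20493 candidates above the mark were of Ccl11, Pik3c2a and Rapgef3 (Pearson r of 0.95, 0.94 and 0.93). Those most like Htr1b 1442077_at were of Pgk1, Drosha and Cntn1 (0.97, 0.94 and 0.93), and those most like Hrh1 1438494_at of Tdrkh, Efcab1 and Ccr6 (0.96, 0.95 and 0.94). These are the highest of many values over 10 arrays that share depth and amplification, and are given as a description.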
